A study of Mus musculus with 12 samples.

Results

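The cytosolic sulfotransferases of the mouse liver were followed here as 9 genes: Sult1a1, Sult1b1, Sult1c2, Sult1d1, Sult1e1, Sult2a8, Sult2b1, Sult3a1 and Sult5a1. A member was a probe set whose single symbol in the array annotation was one of these names, and each gene had exactly 1 such probe set, so 9 of the 22180 genes on the array were members. All 9 were measured on all 12 arrays, and no filter on dim signals was applied. The livers came from 12 male C57BL/6 mice, either wild type (WT) or carrying an AHNAK KO, labelled Ahnak deficient in the sample titles, which lacks a very large scaffold protein. The labels name neither the allele, nor the cells in which it acts, nor the ages of the animals. Weight-matched groups were kept for 8 weeks on regular chow or on the high-fat diet D12492 (HFD, with 60% fat), which gave 4 groups of 3 mice, 1 mouse per array. These groups are called WT chow, WT HFD, KO chow and KO HFD, and the single arrays are named by group and replicate number.

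Sulfotransferases of this family move a sulfonate group from the donor 3'-phosphoadenosine 5'-phosphosulfate (PAPS) onto hydroxyl or amino groups of small molecules, which makes the products more soluble in water and, for most hormones, inactive. The liver is a main site of this conjugation, where it acts on drugs, phenols, steroids, bile acids, thyroid hormones and catecholamines. PAPS is made in the cytosol by Papss1 and Papss2, and a separate group of sulfotransferases in the Golgi uses it for glycans, lipids and proteins.

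The values are log2 signals, so a difference of 1 is a doubling, and the small number of arrays limits their precision. A gene was called where its adjusted p from limma, by the Benjamini-Hochberg method over all 22180 genes, was under 0.05, and standard errors (SE) come from the same fit. Signals ran from 1.40 to 14.36 with array medians of 5.58 to 5.70. The WT HFD arrays stood apart from all others on the first principal component, with scores of 30.0 to 32.3 against -18.5 to -3.95, and this component held 32.2% of the variance. Ahnak itself gave 6.50, 6.83 and 6.58 in WT chow, 7.26, 7.06 and 6.74 in WT HFD, 6.38, 6.74 and 6.66 in KO chow and 6.46, 6.52 and 6.62 in KO HFD. The KO and WT arrays overlapped on chow and not on HFD, where Ahnak was called lower in KO by a log2 difference of -0.48 (limma adjusted p = 0.0483). Only with WT chow 2, WT HFD 3 or KO chow 1 omitted did this call remain; omitting one of the others ended it, at up to 0.173. Whether the 1 Ahnak probe set lies in the deleted part is not known, and it does not check the genotype labels. The 8 hepatocyte markers averaged 13.08 to 13.18 on every array. As a mark of background, 1105 olfactory receptor genes, which liver is not known to use, had a median signal of 3.50 and a 95th percentile of 5.63.

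Promoter windows of 4 members are shown because 3 of them, Sult1b1, Sult1d1 and Sult1e1, lie side by side on chromosome 5, and because Sult1c2 gave the widest difference of all members. The windows are from RefSeq on GRCm38.p6, run from 250 bases before the annotated start to 50 bases after it, and were available for all 9 members. They were searched on both strands for 4 motifs: the nuclear receptor half-site AGGTCA, the STAT element TTCNNNGAA, the TATA box TATAAA and the HNF1 half-site GTTAAT. Sult1b1, Sult2a8 and Sult2b1 each had 2 annotated starts, and only the window nearest the 5' end of the RefSeq gene was searched. Capitals mark the matches in the sequences, which are all on the minus strand and printed 5' to 3' in the direction of transcription.
Sult1b1, chr5:87538146-87538445: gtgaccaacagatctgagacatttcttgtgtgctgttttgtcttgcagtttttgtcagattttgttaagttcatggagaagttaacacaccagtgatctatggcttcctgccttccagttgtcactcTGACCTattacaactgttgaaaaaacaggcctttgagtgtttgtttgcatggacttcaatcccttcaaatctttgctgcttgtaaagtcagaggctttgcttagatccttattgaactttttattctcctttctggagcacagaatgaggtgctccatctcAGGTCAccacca
Sult1d1, chr5:87568957-87569256: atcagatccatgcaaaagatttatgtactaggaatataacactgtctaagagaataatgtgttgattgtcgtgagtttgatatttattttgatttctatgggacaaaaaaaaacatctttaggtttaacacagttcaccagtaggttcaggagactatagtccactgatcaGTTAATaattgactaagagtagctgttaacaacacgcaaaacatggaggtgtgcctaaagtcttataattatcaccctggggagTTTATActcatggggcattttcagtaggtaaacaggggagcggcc
Sult1e1, chr5:87591562-87591861: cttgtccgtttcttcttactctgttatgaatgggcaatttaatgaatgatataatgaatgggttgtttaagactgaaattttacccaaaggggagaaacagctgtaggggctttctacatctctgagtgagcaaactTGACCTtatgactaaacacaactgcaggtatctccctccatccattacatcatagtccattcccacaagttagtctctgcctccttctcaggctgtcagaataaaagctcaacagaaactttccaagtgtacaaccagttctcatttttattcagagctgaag
Sult1c2, chr17:53845909-53846208: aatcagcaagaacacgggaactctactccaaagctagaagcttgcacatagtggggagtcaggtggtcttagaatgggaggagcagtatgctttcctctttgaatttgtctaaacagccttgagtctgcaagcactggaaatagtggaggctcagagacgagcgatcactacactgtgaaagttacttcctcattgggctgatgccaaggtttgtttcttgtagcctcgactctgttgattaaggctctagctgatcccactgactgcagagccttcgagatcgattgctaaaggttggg

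The Sult1b1 window held 2 copies of AGGTCA, at -123 in reverse and at 39 in the forward direction, counted in bases from the start. The Sult1e1 window held 1 copy, at -113 in reverse. The Sult1d1 window had no AGGTCA and held GTTAAT at -79 and TATAAA in reverse at 6. No match was found in the windows of Sult1c2, Sult5a1 and Sult2b1, which says only that these letters are not there. Among the other members, Sult3a1 had TTCNNNGAA at -109, Sult2a8 had TATAAA in reverse at -223, and Sult1a1 had GTTAAT at -232. Such matches are common: of 32851 windows in the same table, 16.3% held AGGTCA, 13.6% TATAAA, 8.30% TTCNNNGAA and 7.10% GTTAAT.

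On HFD, 5 of the 9 sulfotransferases were lower in KO than in WT livers: Sult1b1, Sult1c2, Sult1d1, Sult3a1 and Sult5a1. Over all genes, 10.5% were called in this comparison and 6.62% were called lower in KO, and no member was called higher. These shares include many dim genes. With only genes above the median signal in the fit, 2915 genes were called, 1747 of them lower in KO, and 4 members. Sult3a1 counts among the 5 with signals not shown to be above background, and leaving out single arrays (WT HFD 1 among them) ended both of its calls, at an adjusted p of up to 0.0811 and 0.0724; without it 4 members remain in each comparison. The same 5 genes rose in WT mice when HFD was compared with chow, and no member was called lower. In that comparison 6.96% of all genes were called and 4.02% were called higher on HFD. With only genes above the median signal, 2213 genes were called, 1211 of them higher, and 4 members. Both comparisons use the WT HFD arrays, so they are not independent of each other. The median difference of the 9 members was -0.67 for KO minus WT on HFD, against 0.0011 over all genes. For HFD minus chow in WT it was 0.82, against 0.0033 over all genes. The members were chosen with earlier results of these data known, so these counts and medians do not test the family. The 12 other measured cytosolic sulfotransferases had no call, with medians of -0.02 and 0.04 in the same 2 comparisons. RNA from whole liver was measured, so a change in the number of cells of a type and a change in RNA per cell cannot be told apart.

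**Figure D1:**
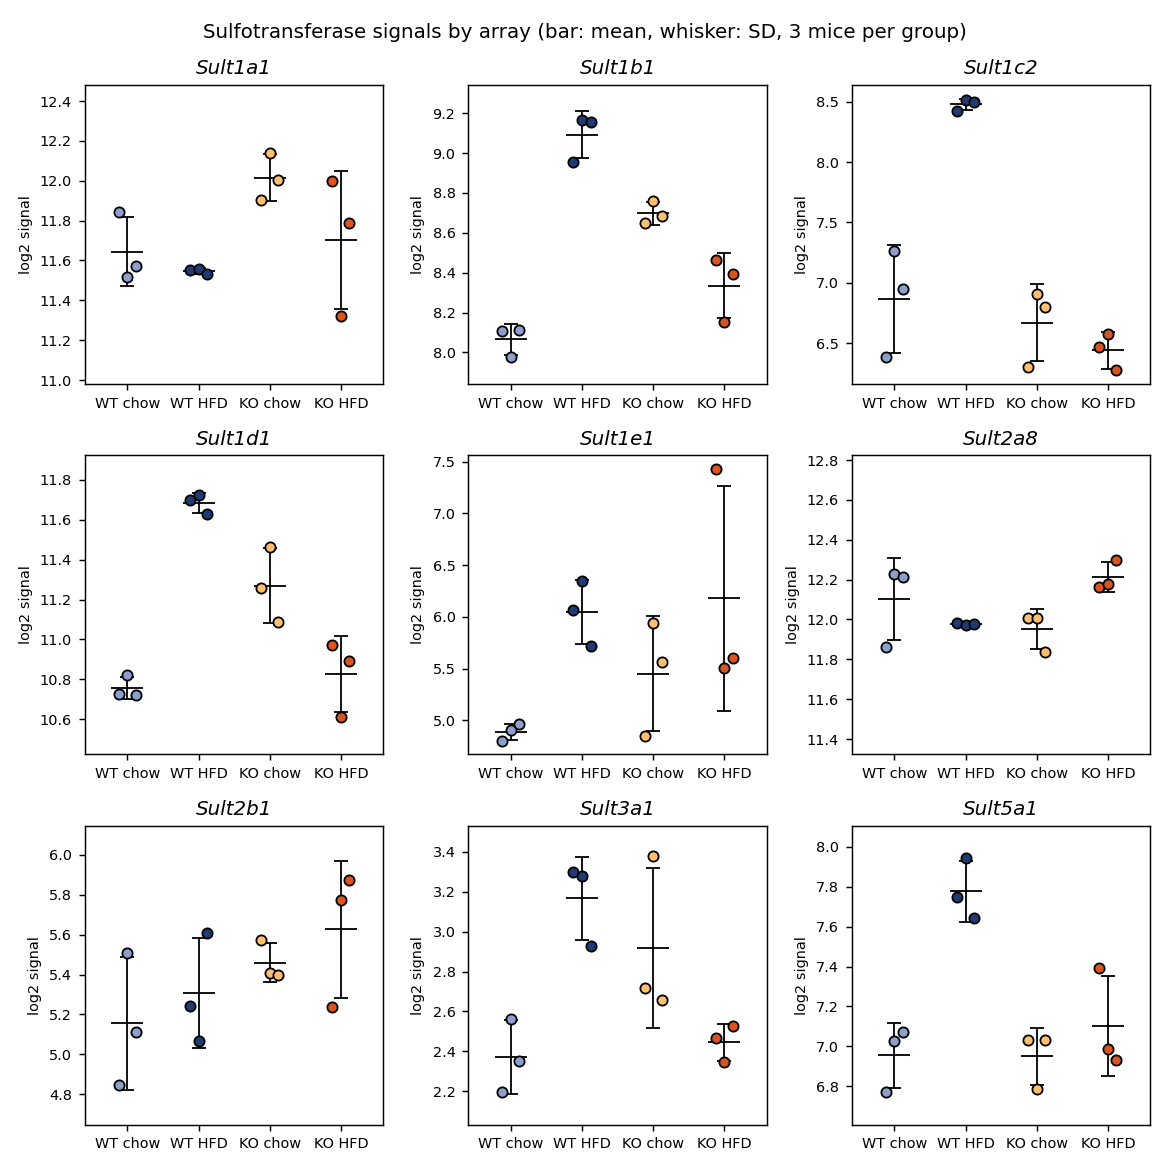
Log2 signals of the 9 sulfotransferases (y axis, a separate scale for each gene) in WT chow, WT HFD, KO chow and KO HFD livers, 1 point per mouse, with a bar at the mean and a whisker of 1 SD over 3 mice. The WT HFD points lie above those of every other group for Sult1b1, Sult1c2, Sult1d1 and Sult5a1, and the groups overlap for Sult2b1.

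Sult1b1 conjugates thyroid hormones and small phenols. Its log2 signals were 8.11, 7.97 and 8.11 in WT chow, 8.96, 9.16 and 9.16 in WT HFD, 8.65, 8.76 and 8.68 in KO chow, and 8.46, 8.15 and 8.39 in KO HFD. All 4 groups were separate: WT HFD was highest, KO chow next, then KO HFD, and WT chow lowest. The gene rose by 1.03 ± 0.10 (SE) with HFD in WT, which is 2.04-fold (limma adjusted p = 0.000116). On HFD it was 1.69-fold lower in KO than in WT, with a difference of -0.76 ± 0.10 and a limma adjusted p of 0.00062. Both calls were kept when any 1 of the 12 arrays was left out.

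Sult1d1, which sulfonates dopamine and other catecholamines, lies next to Sult1b1 and varied with it. It measured 10.73, 10.82 and 10.72 in WT chow, 11.70, 11.73 and 11.63 in WT HFD, 11.26, 11.46 and 11.09 in KO chow, and 10.97, 10.61 and 10.89 in KO HFD. The order of the means was as for Sult1b1, but KO HFD and WT chow overlapped here. HFD raised it 1.91-fold in WT, by 0.93 ± 0.11 (limma adjusted p = 0.000639). On HFD the KO livers were 1.82-fold lower, with a difference of -0.86 ± 0.11 (limma adjusted p = 0.000632), and both calls were kept without any 1 array.

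Over the 12 arrays the signals of Sult1b1 and Sult1d1 had a Pearson r of 0.95, and their deviations from the group means had an r of 0.53. The latter was not particular to neighbours. Within groups, Sult1a1, on another chromosome, had an r of 0.78 with Sult1b1 and of 0.66 with Sult1d1. Sult3a1, also on another chromosome, had 0.75 with Sult1d1 and 0.08 with Sult1b1. The arrays share the 4 group means, so these values describe the arrays and were not tested. Among the measured protein-coding genes in RefSeq order on chromosome 5, those before Sult1b1 are Ugt2b37, Ugt2a3 and Ugt2b38. They belong to a family that adds glucuronic acid. The measured genes after Sult1e1 are the casein genes Csn1s1, Csn2 and Csn1s2a. On HFD, Ugt2b37 was higher in KO by 2.80 (limma adjusted p = 6.73e-05) and Ugt2b38 by 2.70 (limma adjusted p = 0.000138), against the direction of Sult1b1 and Sult1d1. Ugt2a3 differed by 0.06 and the casein genes by -0.20 to -0.13, none of them called.

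**Figure D2:**
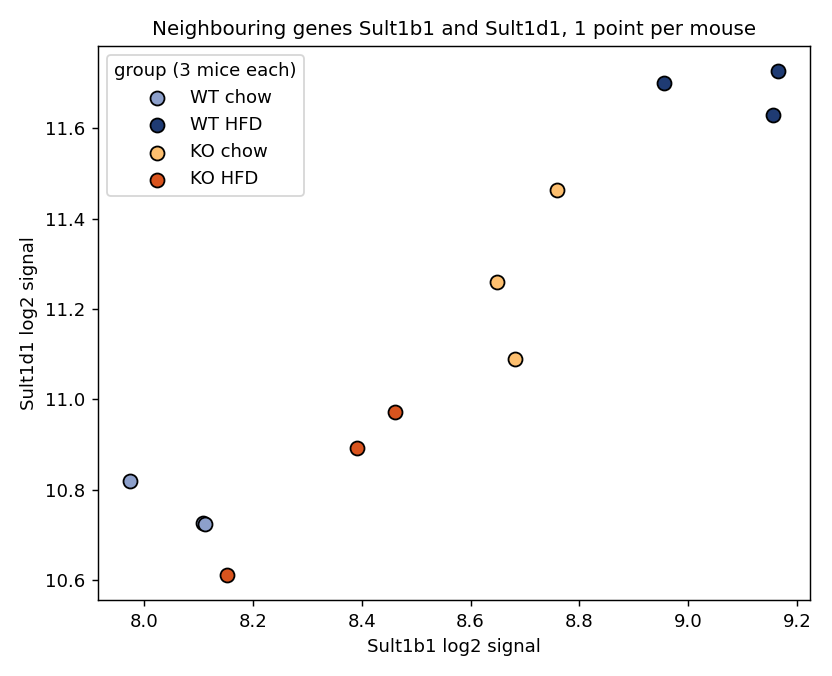
Log2 signal of Sult1d1 (y axis) against that of its neighbour Sult1b1 (x axis), 1 point per mouse, coloured by group with 3 mice each. The 3 WT HFD mice lie at the upper right, KO chow below them, and WT chow and KO HFD at the lower left (r = 0.95 over 12 arrays that share 4 group means).

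Sult1e1, the estrogen sulfotransferase, is the next gene of this run and was not called in any comparison. Its signals were 4.80, 4.91 and 4.96 in WT chow, 6.07, 6.35 and 5.72 in WT HFD, 4.85, 5.94 and 5.57 in KO chow, and 7.43, 5.51 and 5.60 in KO HFD. The WT chow signals lie under the olfactory receptor 95th percentile of 5.63, as do KO chow 1, KO chow 3, KO HFD 2 and KO HFD 3. These signals are not clearly above background. KO HFD 1 had the highest value of all arrays, and WT chow and WT HFD did not overlap. HFD minus chow in WT was 1.16 ± 0.42 (95% interval 0.23 to 2.08, limma adjusted p = 0.136). With KO HFD 1 left out, the spread of the fit was smaller and this difference of 1.16 had an adjusted p of 0.0151; with only the WT arrays in the fit it was 0.00873. On HFD, KO minus WT was 0.13 with an interval from -0.79 to 1.06, and it turned to -0.49 without KO HFD 1.

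Sult1c2 gave the widest difference among the members, and the substrates of this enzyme are less well defined than those of its relatives. It measured 6.38, 7.27 and 6.95 in WT chow, 8.43, 8.52 and 8.50 in WT HFD, 6.30, 6.90 and 6.80 in KO chow, and 6.47, 6.58 and 6.27 in KO HFD. WT HFD stood clear of the other 3 groups, which overlapped one another. HFD raised Sult1c2 3.06-fold in WT, by 1.61 ± 0.20 (limma adjusted p = 0.000748). On HFD the KO livers were 4.11-fold lower, with a difference of -2.04 ± 0.20 (limma adjusted p = 8.86e-05), and both calls were kept without any 1 array.

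The gene beside it on chromosome 17, Sult1c1, is also a cytosolic sulfotransferase and had group means of 4.44 to 4.53. Sult1c1 differed by -0.09 between KO and WT on HFD (limma adjusted p = 0.705), and the other measured neighbours, Pp2d1, Kat2b, Sgo1, Slc5a7 and St6gal2, were not called in that comparison either. Their differences ran from -0.23 to 0.17.

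Sult5a1 is a member whose substrates are little known. Its signals were 6.77, 7.03 and 7.07 in WT chow, 7.75, 7.94 and 7.64 in WT HFD, 7.03, 6.78 and 7.03 in KO chow, and 7.39, 6.99 and 6.93 in KO HFD. As for Sult1c2, WT HFD lay above the other 3 groups, and those overlapped. The rise with HFD in WT was 0.82 ± 0.14, or 1.77-fold (limma adjusted p = 0.00429). KO livers on HFD were lower by 1.60-fold, with a difference of -0.67 ± 0.14 (limma adjusted p = 0.00859), and both calls were kept without any 1 array. Of its measured neighbours on chromosome 8, Spg7 was lower in KO on HFD, with a log2 difference of -0.38 (limma adjusted p = 0.00647). Rpl13, with 0.31 (adjusted p = 0.0533), and Dpep1, with -0.55 (adjusted p = 0.311), were not called. With HFD in WT, Rpl13 had a called difference of -0.35 (adjusted p = 0.0409), kept only without KO HFD 1 and otherwise lost at up to 0.136. Cpne7, Chmp1a and Spata33 were not called on HFD.

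Sult3a1, which acts on amines and is known for higher levels in female than in male mouse liver, had the lowest signals of the 9 probe sets. They were 2.19, 2.56 and 2.35 in WT chow, 3.30, 3.28 and 2.93 in WT HFD, 2.72, 3.38 and 2.66 in KO chow, and 2.47, 2.34 and 2.53 in KO HFD. All 12 lay under the olfactory receptor median of 3.50, so they are not shown to be above background. WT HFD did not overlap WT chow or KO HFD. The fit gave 0.80 ± 0.18 for HFD minus chow in WT (limma adjusted p = 0.0186) and -0.72 ± 0.18 for KO minus WT on HFD (limma adjusted p = 0.0222). The first call was lost without WT chow 1, WT chow 3, WT HFD 1 or WT HFD 2, with an adjusted p of up to 0.0724. The second was lost without WT HFD 1, WT HFD 2, KO HFD 1 or KO HFD 2, with an adjusted p of up to 0.0811.

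Sult1a1, the main phenol sulfotransferase, was not called in any comparison. It measured 11.84, 11.52 and 11.57 in WT chow, 11.55, 11.56 and 11.53 in WT HFD, 11.90, 12.14 and 12.01 in KO chow, and 12.00, 11.32 and 11.79 in KO HFD. KO chow was highest and did not overlap WT chow or WT HFD, and KO HFD spanned the range of both WT groups. HFD minus chow in WT was -0.10 with a 95% interval from -0.42 to 0.23, and KO minus WT on HFD was 0.16 with an interval from -0.17 to 0.48. These intervals leave out a doubling or a halving, which is a log2 difference of 1 in size.

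Sult2a8, a bile acid sulfotransferase of male mouse liver, was not called either. Its signals were 11.86, 12.23 and 12.21 in WT chow, 11.98, 11.97 and 11.98 in WT HFD, 12.01, 12.01 and 11.84 in KO chow, and 12.16, 12.18 and 12.30 in KO HFD. KO HFD lay just above WT HFD and KO chow without overlap, and WT chow overlapped every other group. KO minus WT on HFD was 0.24 ± 0.10 (interval 0.01 to 0.46, limma adjusted p = 0.192), in the direction opposite to the 5 called members.

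Sult2b1, which sulfonates cholesterol and other hydroxysteroids, gave 4.85, 5.51 and 5.11 in WT chow, 5.24, 5.07 and 5.61 in WT HFD, 5.57, 5.41 and 5.40 in KO chow, and 5.24, 5.77 and 5.87 in KO HFD. The 4 groups overlapped, and KO chow had the narrowest range, from 5.40 to 5.57. Most of these signals lie under the olfactory receptor 95th percentile of 5.63 and are not clearly above background. KO minus WT on HFD was 0.32 with an interval from -0.11 to 0.75, and HFD minus chow in WT was 0.15 with an interval from -0.28 to 0.58. Neither passed, with limma adjusted p of 0.366 and 0.742.

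**Figure D3:**
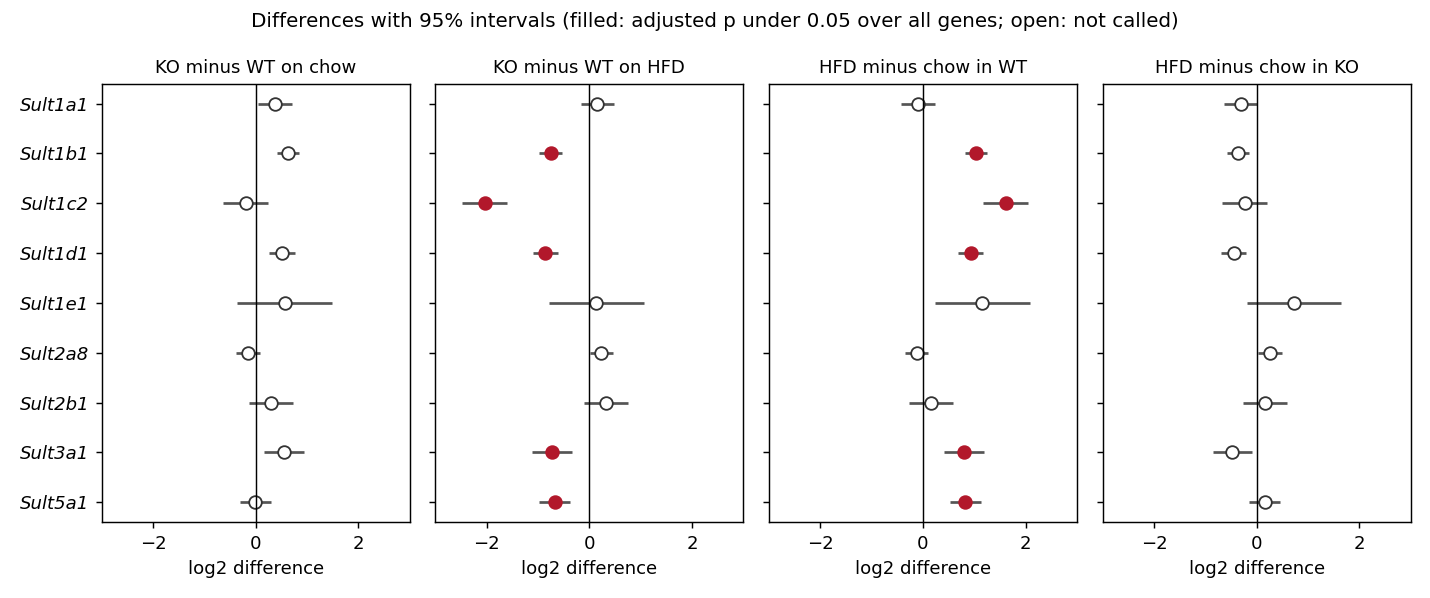
Log2 differences (x axis) with 95% intervals for the 9 sulfotransferases (y axis) in 4 comparisons between groups of 3 mice; filled points had a limma adjusted p under 0.05 over all genes. Filled points stand on the left for KO minus WT on HFD (5 genes) and on the right for HFD minus chow in WT (the same 5), and there are none in the other comparisons.

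On chow, no sulfotransferase passed the test between KO and WT, where 0.00902% of all genes, which is 2 genes, were called. Without adjustment, 4 members had a limma p under 0.05, as had 1558 of all genes. In Sult1a1, Sult1b1, Sult1d1 and Sult3a1 every KO chow array lay above every WT chow array, a pattern seen in 5.95% of all genes. The difference was 0.63 for Sult1b1 (interval 0.42 to 0.85, limma adjusted p = 0.0873) and 0.51 for Sult1d1 (interval 0.27 to 0.76, adjusted p = 0.269). It was 0.55 for Sult3a1 (adjusted p = 0.559) and 0.37 for Sult1a1 (adjusted p = 0.649). Sult1b1 passed under 2 of the alternatives tried, with an adjusted p of 0.0176 when limma's trend and robust settings were used and 0.0239 when the dimmer part of the genes was left out. Sult1c2 and Sult5a1 had differences of -0.20 and -0.01 on chow, and their intervals ran from -0.64 to 0.24 and from -0.31 to 0.30.

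In KO mice, HFD against chow called no member, and 0.243% of all genes, or 54, were called. Without adjustment, 4 members had a limma p under 0.05, against 1887 of all genes. Every KO HFD array lay below every KO chow array for Sult1b1, Sult1d1 and Sult3a1, as in 6.79% of all genes. Sult1b1 had a difference of -0.36 (interval -0.58 to -0.15, limma adjusted p = 0.248), Sult1d1 of -0.45 (interval -0.69 to -0.20, adjusted p = 0.2) and Sult3a1 of -0.47 (adjusted p = 0.491). Sult1c2 and Sult5a1, which rose with HFD in WT, had differences of -0.23 and 0.15 in KO, with intervals from -0.67 to 0.21 and from -0.15 to 0.46. Sult2a8 was the member with a p under 0.05 in the upward direction, at 0.26 (adjusted p = 0.521).

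The difference in diet response between the genotypes was tested directly as an interaction, the HFD minus chow difference in KO less that in WT. It passed below 0 for Sult1b1, Sult1c2, Sult1d1 and Sult3a1, in a comparison where 3.53% of all genes were called and 2.1% were called below 0. Sult1c2 had an interaction of -1.84 ± 0.29 (limma adjusted p = 0.00491), Sult1b1 of -1.39 ± 0.14 (adjusted p = 0.000265), Sult1d1 of -1.38 ± 0.16 (adjusted p = 0.000733) and Sult3a1 of -1.27 ± 0.25 (adjusted p = 0.0176). Sult5a1 had -0.67 ± 0.20 and did not pass (adjusted p = 0.0913), though it did with each array centred on its median (0.0427), without the dimmer genes (0.0391) and without KO HFD 1 (0.0306). The components differed between members. In Sult1b1, Sult1d1 and Sult3a1 the KO values lay above WT on chow and below WT on HFD, with Sult3a1 not shown to be above background. In Sult1c2 and Sult5a1 the chow values overlapped. No member was called between KO and WT on chow. The contrast between these members was read from the values and was not itself tested.

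**Figure D4:**
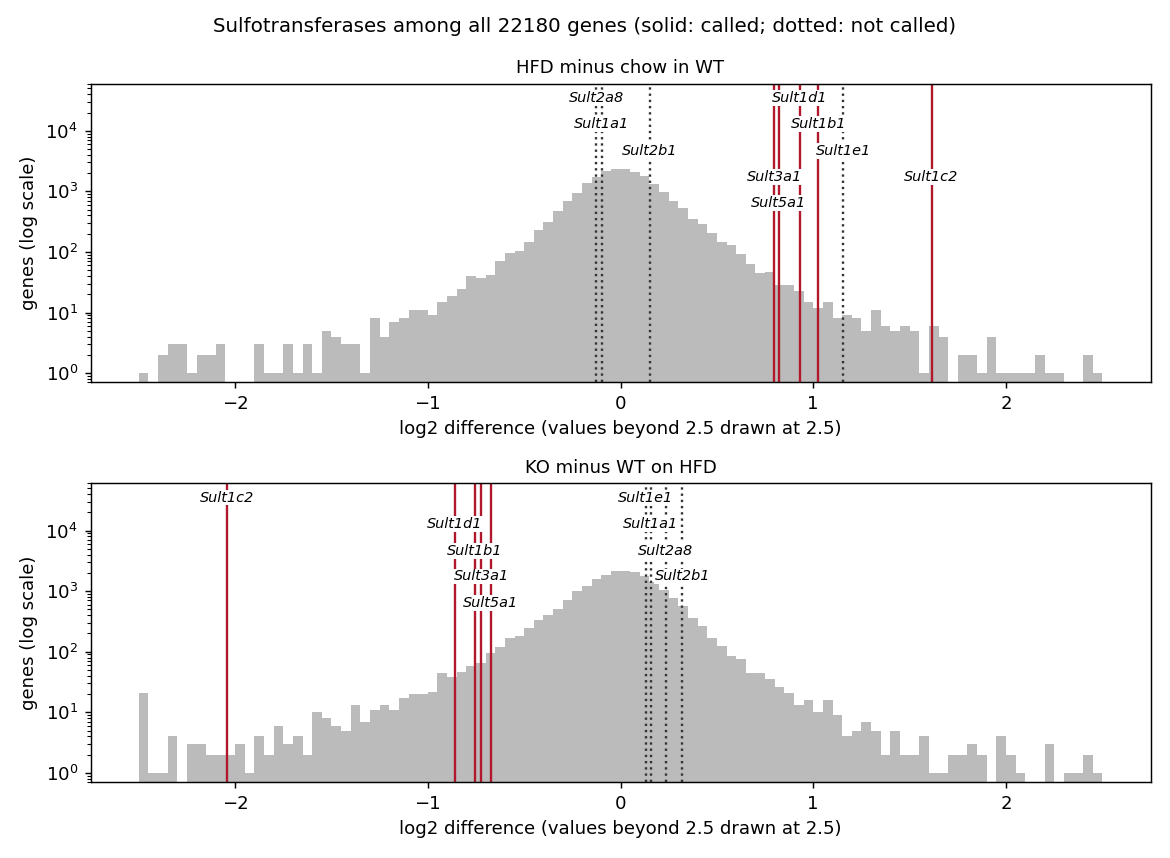
Histograms of the log2 difference over all 22180 genes (x axis; genes per bin on a log scale, y axis) for HFD minus chow in WT and KO minus WT on HFD, with a line at each of the 9 sulfotransferases, solid where called and dotted where not. The called members lie between 0.80 and 1.61 in the upper panel and between -2.04 and -0.67 in the lower one.

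The other cytosolic sulfotransferases, 12 of 13 measured, were not called in any comparison. Between KO and WT on HFD, 2 of the 12 had an unadjusted limma p under 0.05, as had 5283 of all 22180 genes. The differences of the 12 ran from -0.47 for Sult2a7 to 0.35 for Sult2a3. Of these, Sult2a1 to Sult2a7 and Sult3a2 are close relatives of members Sult2a8 and Sult3a1. Their group means ran from 2.28 for Sult2a6 to 4.89 for Sult2a4, under the olfactory receptor 95th percentile of 5.63. The median difference of the 12 genes was -0.02 on HFD.

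Among 9 genes that supply or recycle PAPS, 3 were lower and 1 was higher in KO than in WT on HFD, where 10.5% of all genes were called and 6.62% were lower. The calls of Papss2 and Slc26a2, both lower, were lost when single arrays were left out, as given with each gene. Papss1, a PAPS synthase, measured 6.39, 6.12 and 6.13 in WT chow, 6.91, 6.64 and 6.79 in WT HFD, 5.98, 6.15 and 5.60 in KO chow, and 6.15, 6.13 and 6.09 in KO HFD. WT HFD lay above all other groups. Papss1 was lower in KO on HFD, with a difference of -0.65 ± 0.14 (limma adjusted p = 0.00882), and this call was kept without any 1 array. Its rise of 0.57 with HFD in WT (adjusted p = 0.0257) was lost without WT chow 2, WT chow 3, WT HFD 1 or WT HFD 3, with an adjusted p of up to 0.0966.

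Papss2, the other synthase, measured 11.52, 11.28 and 11.32 in WT chow, 11.64, 11.50 and 11.66 in WT HFD, 11.81, 11.79 and 11.76 in KO chow, and 11.47, 11.03 and 11.11 in KO HFD. KO chow was highest and KO HFD overlapped WT chow. Its difference of -0.40 between KO and WT on HFD (limma adjusted p = 0.0456) was kept only without WT chow 1 or KO HFD 1; leaving out one of the other 10 arrays ended it, at up to 0.163. Its interaction was -0.81 ± 0.16 (adjusted p = 0.0181) and passed without any 1 array.

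Slc35b3, which carries PAPS into the Golgi, moved the other way and was higher in KO on HFD by 0.41 ± 0.08 (limma adjusted p = 0.00758), a call kept without any 1 array. Its fall of -0.32 with HFD in WT (adjusted p = 0.0345) was lost without any 1 of the 6 WT arrays or KO chow 1, with an adjusted p of up to 0.128, and also with the replicate block, after either rescaling of the arrays and with only the WT arrays in the fit. The sulfate transporter Slc26a2 had a difference of -0.34 on HFD (adjusted p = 0.0262), lost without WT HFD 1, WT HFD 2 or any KO HFD array, with an adjusted p of up to 0.0944. Bpnt1, Bpnt2, Slc26a1, Suox and Slc35b2 were not called.

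Sulfatases, which remove sulfate groups, were called in both directions on HFD, 2 lower and 1 higher in KO among 8 of 9 measured, against 10.5% of all genes called. Arsb, a lysosomal sulfatase, was lower in KO by 0.60 on the log2 scale (difference -0.60 ± 0.11, limma adjusted p = 0.00374) and rose by 0.70 with HFD in WT (adjusted p = 0.00233). Arsg, another lysosomal sulfatase, was higher in KO by 1.26 ± 0.16 (adjusted p = 0.000424) and had a difference of -0.80 with HFD in WT (adjusted p = 0.00989). These 4 calls were kept without any 1 array. Arsa, with -0.44 on HFD (adjusted p = 0.0174), was lost without WT HFD 1, WT HFD 3, KO HFD 2 or KO HFD 3, with an adjusted p of up to 0.0707.

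Of the Golgi sulfotransferases, 17 of 19 were measured, 2 were lower and 1 was higher in KO on HFD, against 10.5% called over all genes. Hs6st1, which modifies heparan sulfate, had a difference of -0.62 (limma adjusted p = 0.0109), kept without any 1 array. Gal3st1, which makes sulfatide lipids, had -0.74 (adjusted p = 0.0301), which leaving out any 1 of the 6 HFD arrays ended, at up to 0.104. Ndst2, another heparan sulfate enzyme, had 0.53 (adjusted p = 0.0119), lost without WT HFD 2 at an adjusted p of 0.0533. In WT, HFD minus chow was 0.58 for Hs6st1, 0.85 for Gal3st1 and -0.61 for Ndst2, all called. The first was lost without WT chow 1 or any WT HFD array (adjusted p up to 0.0686) and the second without WT chow 2, WT chow 3 or any WT HFD array (up to 0.0862). No gene of these lists of sulfation genes was called between genotypes on chow or between diets in KO.

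**Figure D5:**
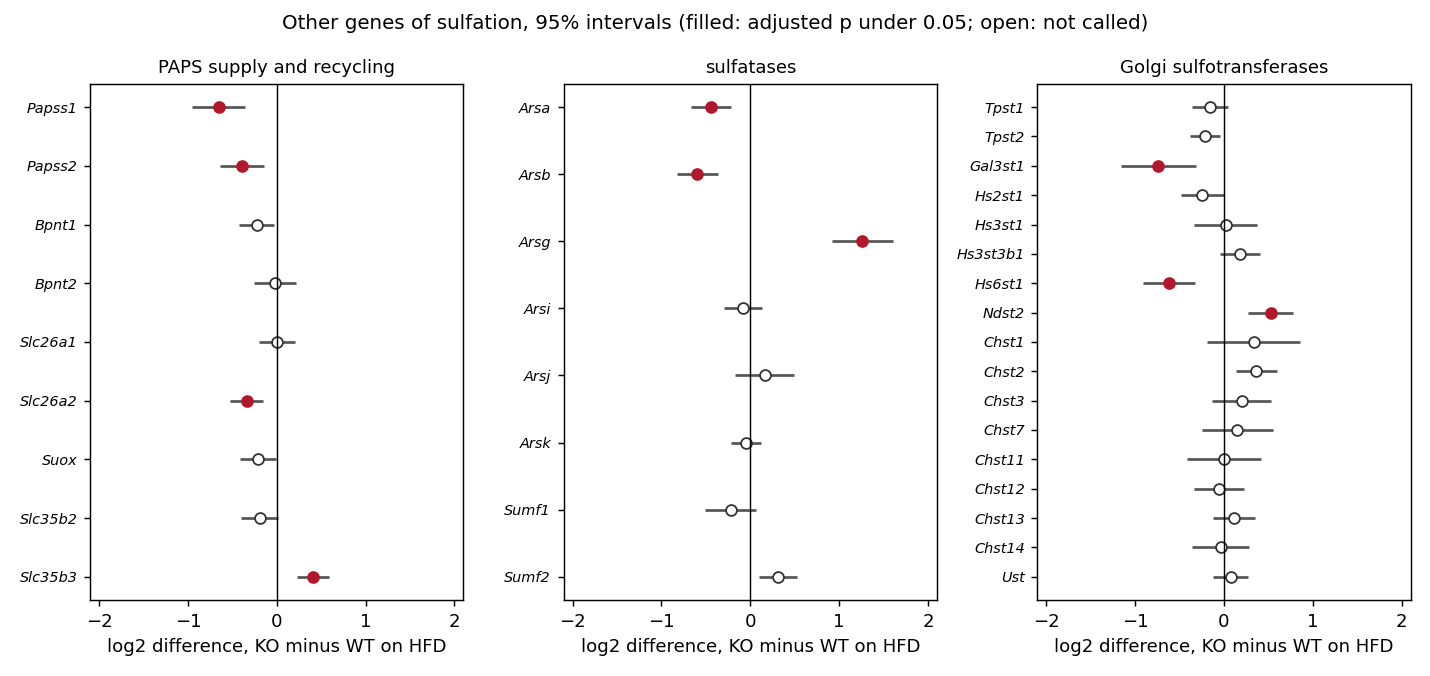
Log2 difference between KO and WT on HFD (x axis, 3 mice per group) with 95% intervals for genes of PAPS supply, sulfatases and Golgi sulfotransferases (y axis); filled points had a limma adjusted p under 0.05. Arsg stands out on the right at 1.26, and Gal3st1 and Papss1 are at -0.74 and -0.65.

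Nuclear receptors and other factors known to act on sulfotransferase genes were listed as 16 genes, of which 13 were measured, and none was called in any comparison. On HFD, 2 of them, Ahr and Rora, had an unadjusted limma p under 0.05 between KO and WT, as had 5283 of all 22180 genes. The dioxin receptor Ahr differed by -0.55 on HFD (interval -1.05 to -0.05, limma adjusted p = 0.166) and by 0.61 with HFD in WT (adjusted p = 0.15). The pregnane receptor Nr1i2 differed by -0.13 on HFD, the constitutive androstane receptor Nr1i3 by 0.09 and Hnf4a by 0.01. These are RNA levels, and the activity of the factors was not measured.

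Some markers of other cells were also called between KO and WT on HFD, where 10.5% of all genes were called. Of 8 hepatocyte markers only Cps1 was called on HFD, higher in KO. Of 7 stellate cell markers, Lrat and Col1a1 were lower in KO on HFD, with differences of -0.93 (limma adjusted p = 0.000174) and -1.10 (adjusted p = 0.000379), and none was higher. The mean log2 signal of the 7 was 8.33 to 8.69 in WT HFD and 7.92 to 8.12 in WT chow. It was 8.06 to 8.29 in KO chow and 8.03 to 8.21 in KO HFD. WT HFD was therefore highest, as for Sult1b1, Sult1c2, Sult1d1 and Sult5a1. Of 6 endothelial markers, Lyve1 (-1.35) and Cdh5 (-0.36) were lower in KO on HFD, and the call of Lyve1 was lost without any 1 of the 6 HFD arrays (adjusted p up to 0.109). Kdr, another of the 6, pointed the other way, with an uncalled difference of 0.33 (adjusted p = 0.078). Its difference of -0.41 with HFD in WT was called (adjusted p = 0.0446), a call kept only without WT HFD 1, KO HFD 1 or KO HFD 3 and otherwise lost at up to 0.145. The 6 averaged 9.99 to 10.02 in WT HFD, 9.69 to 10.09 in WT chow, 9.84 to 9.93 in KO chow and 9.69 to 9.84 in KO HFD. No call was made among 8 macrophage markers. Their median difference was -0.32 for KO minus WT on HFD and 0.28 for HFD minus chow in WT. An unadjusted limma p under 0.05 was found for 2 and 4 of them, and for 5283 and 4569 of all 22180 genes. Adgre1 (-0.62, adjusted p = 0.066) and Cd5l (-0.59, adjusted p = 0.0646) had every KO HFD array below every WT HFD array. The 8 averaged 9.30 to 9.81 in WT HFD, 9.05 to 9.37 in WT chow, 9.04 to 9.41 in KO chow and 9.13 to 9.37 in KO HFD. The 5 cholangiocyte and 4 adipocyte markers had no call on HFD either. Of 7 lymphocyte markers, Cd4 was higher in KO on HFD, a call lost without WT HFD 3 at an adjusted p of 0.0511. The part of these cells in the sulfotransferase differences was not tested.

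Some genes of the circadian clock, a list chosen with the results known, differed in the same comparisons. On HFD, 4 of 13 measured were lower and 2 higher in KO, 7 were not called, and 10.5% of all genes were called. With HFD in WT, 2 were higher and 11 were not called, against 6.96% of all genes called and 4.02% higher. The interaction passed for 1 of the 13, against 3.53% of all genes. The difference was -2.89 for Ciart (limma adjusted p = 0.000178) and -1.19 for Dbp (adjusted p = 0.0125), and Ciart rose by 2.77 with HFD in WT. Arntl, the activator of the core loop, was higher by 1.08 (adjusted p = 0.032); leaving out any 1 of the 6 HFD arrays ended this call, at up to 0.105, and the call of Hlf was lost without WT HFD 2, KO HFD 2 or KO HFD 3 (up to 0.0634). The labels do not say at what time of day livers were taken, and the part of these genes in the sulfotransferase differences was not tested.

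The genes most like each called member over the 12 arrays were named by Pearson r, as a description that shares the 4 group means. For Sult1b1 they were Naip2 (0.96), 9030619P08Rik (0.95) and Sult1d1 (0.95). For Sult1d1 they were Dclre1b (0.97), Abhd15 (0.95) and Sult1b1. Sult1c2 was followed by Cd151 (0.98), Tmem220 (0.98) and Tle3 (0.97), and Sult5a1 by Tbcd (0.95), Tbcb (0.95) and Hectd2os (0.94). For Sult3a1 the order was Sult1d1 (0.92), Fkbp2 and Il15 (both 0.91), read from a probe set whose signals are not shown to be above background. Within groups, after the group means were taken away, Sult1d1 and Dclre1b had an r of 0.88. Sult1b1 and Sult1c2 had an r of 0.70 over all arrays and of -0.17 within groups.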

How the data were processed

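Total RNA of 12 livers was labelled with biotin and hybridised to whole-transcript Affymetrix mouse arrays, 1 mouse per array. The deposited table holds log2 signals of 41345 probe sets, which the submitters' processing notes link to oligo; the sources used here give no version of it, normalization or genome build. The values had 0 missing and were used as deposited.

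Symbols came from the array annotation: 23521 probe sets carried exactly 1 symbol, of which 23328 matched a RefSeq table for GRCm38.p6, and the other 17824 were left out. Each of the 22180 genes was represented by the probe set of highest mean signal. Probe sequences were not used here, so cross-hybridisation between related sulfotransferases was not checked. Promoters and gene order came from RefSeq tables of the same assembly. Neighbours were taken among measured protein-coding genes, so genes without a measured probe set were skipped.

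A single limma 3.58.1 model in R 4.3.3 (lmFit, eBayes) held all 4 groups, and the code was tested on simulated data. There were 5 comparisons, each adjusted over all genes by the Benjamini-Hochberg method. Replicates are separate mice, and levels are given with every array. The named genes were the members, fixed lists of sulfation genes, regulators and cell markers, neighbours on the chromosome, and the 3 genes most like each called member. The members and lists were chosen with earlier results of these data known. Alternatives changed the fit (a replicate block, array weights, trend and robust eBayes, a fit of the compared arrays alone), the scaling (each array centred on its median, or quantile normalization), the genes (those above the median signal, or probe sets averaged per gene) and the arrays (each left out in turn). A call only at 2-fold or more was added after seeing the data.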

Additional observations from a re-analysis of the deposited data

Results flagged for a closer look

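For 4 of the 9 sulfotransferases the response to HFD differed between WT and KO by limma's interaction term. The adjusted p was under 0.05 over all genes, of which 3.53% were called. The term was -1.39 for Sult1b1, -1.84 for Sult1c2, -1.38 for Sult1d1 and -1.27 for Sult3a1, where the signals of Sult3a1 are not shown to be above background. Each passed without any 1 of the 12 arrays, with the highest adjusted p, 0.049, in Sult3a1.

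Other genes of sulfation were measured as 12 cytosolic sulfotransferases, 9 genes of PAPS supply, 8 sulfatases and 17 Golgi sulfotransferases. The same interaction term passed for 5 of these, where 3.53% of all genes were called. It was -0.81 for Papss2 and 1.29 for Arsg, both kept without any 1 array. It was 0.57 for Slc35b3, lost without WT HFD 3 or KO chow 3 (adjusted p up to 0.0595), and 0.66 for Ndst2, kept only without WT chow 2 (adjusted p otherwise up to 0.114) and lost with each array centred on its median. For Arsb it was -0.70, lost without WT chow 3, any WT HFD array, KO chow 2, KO chow 3 or KO HFD 2 (adjusted p up to 0.0682); the term of Arsb was also lost, at -0.56, when all probe sets of a gene were averaged.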

How the results depend on the processing

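The 14 calls of members gave 273 values under the alternatives: 265 kept direction and call, 8, all of Sult3a1 with 1 array left out, lost the call, and 0 turned. The call only at 2-fold or more is not counted in these values or in those of the uncalled results. It left fewer members called in 2 comparisons, as given below. The replicate block gave 0, 5, 5, 0 and 4 called members for KO minus WT on chow, KO minus WT on HFD, HFD minus chow in WT, HFD minus chow in KO and the interaction, as without it. Genes called with the block were 0, 2073, 1290, 40 and 612, and the block ended the call of Slc35b3 for HFD minus chow in WT. Arrays with the same number had deviations correlated at -0.06 to 0.08 over 18 pairs, 0 above 0.1. Each of these correlations runs over all genes, and whether such arrays share more than a number in some genes was not tested. The cause of the changes that follow was not tested.

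Fitting only the arrays compared ended the calls of Papss2 and Slc26a2 for KO minus WT on HFD and of Slc35b3, Gal3st1 and Hs6st1 for HFD minus chow in WT. For KO minus WT on chow, the main count of 2 genes became 18 with trend and robust settings, 19 above the median signal (1 called member in both), 0 with only the arrays compared, 1 at 2-fold and 0 to 5 with 1 array left out. For HFD minus chow in KO, 54 became 124 with trend and robust settings, 124 above the median signal, 21 with only the arrays compared, 28 at 2-fold and 28 to 79 with 1 array left out, lowest without KO chow 2. For the interaction, 783 became 1201, 1394 and, at 2-fold, 275, and 432 to 718 with 1 array left out, lowest without KO chow 2. At 2-fold, KO minus WT on HFD called 295 genes and 1 member, Sult1c2, and HFD minus chow in WT 206 genes and 2 members, Sult1b1 and Sult1c2. With 1 array left out, the former called 1506 to 2326 genes, lowest without WT HFD 3, and the latter 815 to 1691, lowest without WT chow 3. Centring each array moved the split of KO minus WT on HFD from 862 higher and 1469 lower to 545 and 1937, and that of HFD minus chow in WT from 891 and 652 to 1089 and 457; the median of all genes moved by at most -0.0624.

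Of 603 values of the 31 uncalled member results, 577 kept their side, 7 passed and 19 turned. Those that turned were Sult1e1 for KO minus WT on HFD (-0.0978 with array weights, -0.49 to 0.47 with 1 array left out), Sult5a1 for KO minus WT on chow (0.0153 after quantile normalization, -0.10 to 0.0761), Sult1c2 for the same (-0.44 to 0.0045), Sult1a1 and Sult2b1 for HFD minus chow in WT (-0.16 to 0.0022 and -0.0027 to 0.33), and the interaction of Sult2b1 (-0.046 after quantile normalization, -0.0458 centred, -0.16 to 0.21).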
